A study of Rattus norvegicus with 12 samples.

Results

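A group of 118 genes stood lower in OC1 cells given siRNA 1423 than in control cells, and higher in cells given siRNA 1928, although the labels name Bcl-2 as the target of both siRNAs. The genes were chosen by their own abundance in CPM, which is an expected count as a share of the sum of its column, scaled to parts per 1000000. A gene was included if it averaged 10 CPM or more over all 12 libraries and its mean was lower with siRNA 1423 and higher with siRNA 1928 than in control by at least 0.15 on the log2 scale. In addition, every library of siRNA 1423 had to lie below every control library, and every library of siRNA 1928 above every control library. These 118 genes were 1.23% of the 9567 genes that reached 10 CPM, out of 23978 genes in the table. Because the ratios to control and the separation of the libraries chose the genes, both are given as a description and carry no test.

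OC1 is labelled as a line of sensory epithelial cells of the cochlea, grown in culture and listed under rat. Mouse is the origin of HEI-OC1, a line of similar name, and whether OC1 is that line was not settled here; if it were, these counts on rat genes would be those of mouse reads assigned to rat sequence. Cells were transfected by lipid with siRNA 1423 against Bcl-2 (4 libraries), siRNA 1928 against Bcl-2 (4 libraries) or a control siRNA (4 libraries), and poly(A) RNA was sequenced with a strand-specific protocol. The labels list the genotype of both siRNA groups as a Bcl-2 knockdown and that of the control cells as wild type, and they list a plasmid transfection for all 3 groups, which conflicts with the siRNA of the protocol and is not used here. All cells came from 1 line. Nothing in the labels says that the libraries A to D of a group were separate cultures, so a p-value reflects no more than the differences among these libraries, whose source may be technical. Library totals were 16871581 to 22017957 expected counts with siRNA 1423, 15671546 to 22726532 with siRNA 1928 and 17161984 to 23247593 in control.

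Bcl-2 is a protein of the outer mitochondrial membrane and the endoplasmic reticulum that restrains apoptosis by binding pro-apoptotic members of its own family. An siRNA guides the Argonaute protein to matching mRNAs, which are cut, and it can also lower other mRNAs that match only its seed. For this reason knockdown studies commonly use several siRNAs with different sequences against one target. The deposited table gives Ensembl identifiers without symbols, and 0 of them were found in the reference table of rat genes used here. The 118 genes are therefore described by their values, 4 of them by identifier, and no role, sequence or pathway is assigned to any of them. For the same reason the level of Bcl2 and the markers of cochlear cell types were not analysed here.

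**Figure D1:**
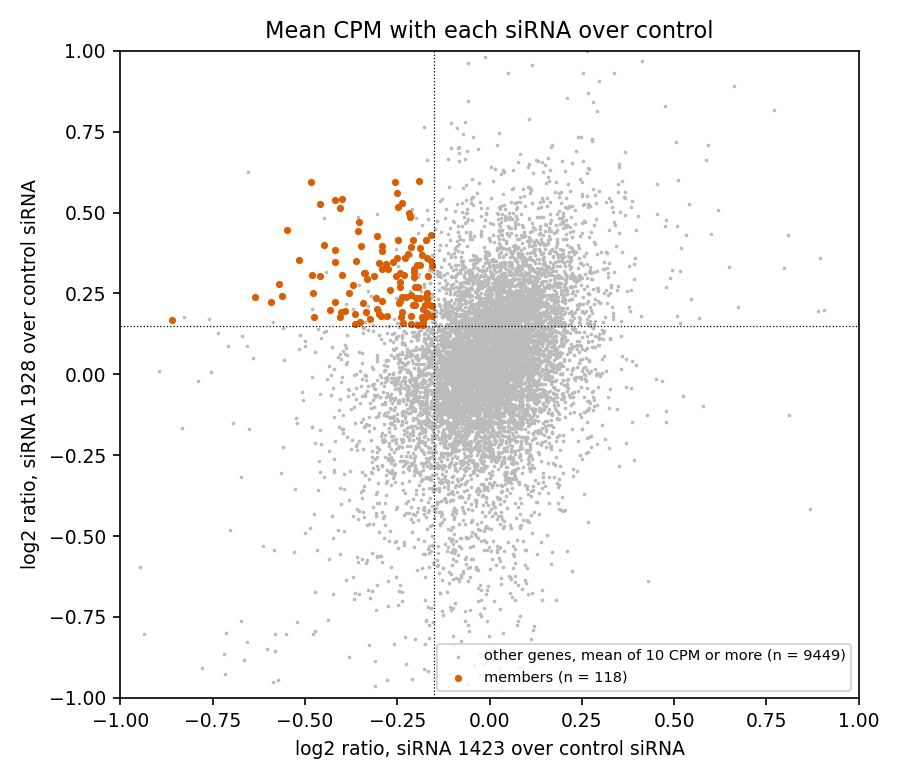
Log2 ratio of mean CPM with siRNA 1423 over control (horizontal) and with siRNA 1928 over control (vertical) for the 9567 genes that averaged at least 10 CPM; dotted lines mark 0.15 in each direction and 38 genes beyond 1 on either axis are not drawn. The 118 chosen genes (orange) lie in the upper left corner, which they share with 88 genes (grey) that met both limits but whose libraries overlapped control with at least 1 of the siRNAs.

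The ratios were modest in both directions. With siRNA 1423 the log2 ratio to control had a median of -0.25 and ran from -0.86 to -0.15. With siRNA 1928 it had a median of 0.28 and ran from 0.15 to 0.60. Over all genes of 10 CPM or more the medians were -0.0027 with siRNA 1423 and 0.045 with siRNA 1928. Only 3 of the 118 genes were lower by 1.5-fold or more with siRNA 1423, and only 3 were higher by 1.5-fold or more with siRNA 1928. Because the differences pointed away from each other, the distance between the siRNAs was wider, with a median 1.49-fold higher level with siRNA 1928 than with siRNA 1423. That distance reached 1.5-fold in 57 genes and 2-fold in 2.

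Both absolute log2 ratios had to reach 0.15, and most lay not far above it. Their quartiles were -0.36 and -0.20 with siRNA 1423, and 0.21 and 0.36 with siRNA 1928. A similar size in both directions was therefore partly set by the choice of genes. In 92 of the 118 genes the absolute log2 ratios of the siRNAs lay within a factor of 2 of each other. The medians of these genes were -0.25 with siRNA 1423 and 0.27 with siRNA 1928. A smaller set of 11 genes departed at least 2 times as far with siRNA 1423, with medians of -0.47 with siRNA 1423 and 0.19 with siRNA 1928. The opposite imbalance was seen in 15 genes, with medians of -0.19 with siRNA 1423 and 0.43 with siRNA 1928. Across the 118 genes, which share their control libraries and were chosen at fixed limits, Pearson's r between the log2 ratio with siRNA 1423 and that with siRNA 1928 was -0.046, given only as a description.

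The gene with the largest log2 ratio in both directions, ranked by the smaller of its absolute ratios, was ENSRNOG00000014948. It had 11.2, 10.4, 11.4 and 9.83 CPM in libraries A to D of siRNA 1423, 22.3, 20.6, 23.8 and 23.7 CPM with siRNA 1928, and 14.7, 12.8, 16.2 and 16.1 CPM in control. Its mean was 10.7 ± 0.749 CPM with siRNA 1423, 22.6 ± 1.5 CPM with siRNA 1928 and 15.0 ± 1.58 CPM in control (SD, n = 4 each), which gave log2 ratios to control of -0.48 with siRNA 1423 and 0.59 with siRNA 1928. No library overlapped another group, and the log2 distance between the siRNAs, 1.08, was the widest of the 118. The gene was among the scarcer genes of the group, with 176 to 541 expected counts per library. Its log2 ratio with siRNA 1423 was -0.35 in replicates A and B alone and -0.60 in replicates C and D alone.

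ENSRNOG00000061367 ranked next. Its levels were 32.8, 33.7, 32.4 and 31.8 CPM in libraries A to D of siRNA 1423, 61.5, 61.7, 68.1 and 67.9 CPM with siRNA 1928, and 46.5, 45.8, 44.5 and 43.0 CPM in control. The mean was 32.7 ± 0.778 CPM with siRNA 1423, 64.8 ± 3.69 CPM with siRNA 1928 and 45.0 ± 1.56 CPM in control (SD, n = 4 each), giving log2 ratios of -0.46 with siRNA 1423 and 0.53 with siRNA 1928. The gaps were wide here: the lowest control library stood 0.354 above the highest library of siRNA 1423 on the log2 scale, and the lowest library of siRNA 1928 stood 0.403 above the highest control library.

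At the other end of the ranking, the genes only just met the limits. ENSRNOG00000062721 had 72.9, 72.0, 73.1 and 68.7 CPM in libraries A to D of siRNA 1423, 88.1, 92.0, 88.9 and 95.2 CPM with siRNA 1928, and 84.6, 85.3, 74.2 and 83.4 CPM in control. Control library C, at 74.2 CPM, lay close to the siRNA 1423 libraries and set the narrow gap of 0.0227 on the log2 scale. The log2 ratios of this gene were -0.19 with siRNA 1423 and 0.15 with siRNA 1928, and its ratio with siRNA 1928 was 0.085 in replicates A and B alone and 0.22 in replicates C and D alone.

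The last gene in the ranking was ENSRNOG00000003267, with 37.1, 39.8, 38.9 and 38.4 CPM in libraries A to D of siRNA 1423, 47.0, 48.3, 47.1 and 51.9 CPM with siRNA 1928, and 41.1, 44.5, 44.4 and 44.8 CPM in control. Control library A stood below the other 3 control libraries. Its log2 ratios were -0.18 with siRNA 1423 and 0.15 with siRNA 1928. Outside the limits, 118 further genes of 10 CPM or more had their libraries separated in the same directions but a smaller ratio on at least one side. The nearest of these had log2 ratios of -0.148 with siRNA 1423 and 0.198 with siRNA 1928, so no step in the values marked the edge of the group.

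**Figure D2:**
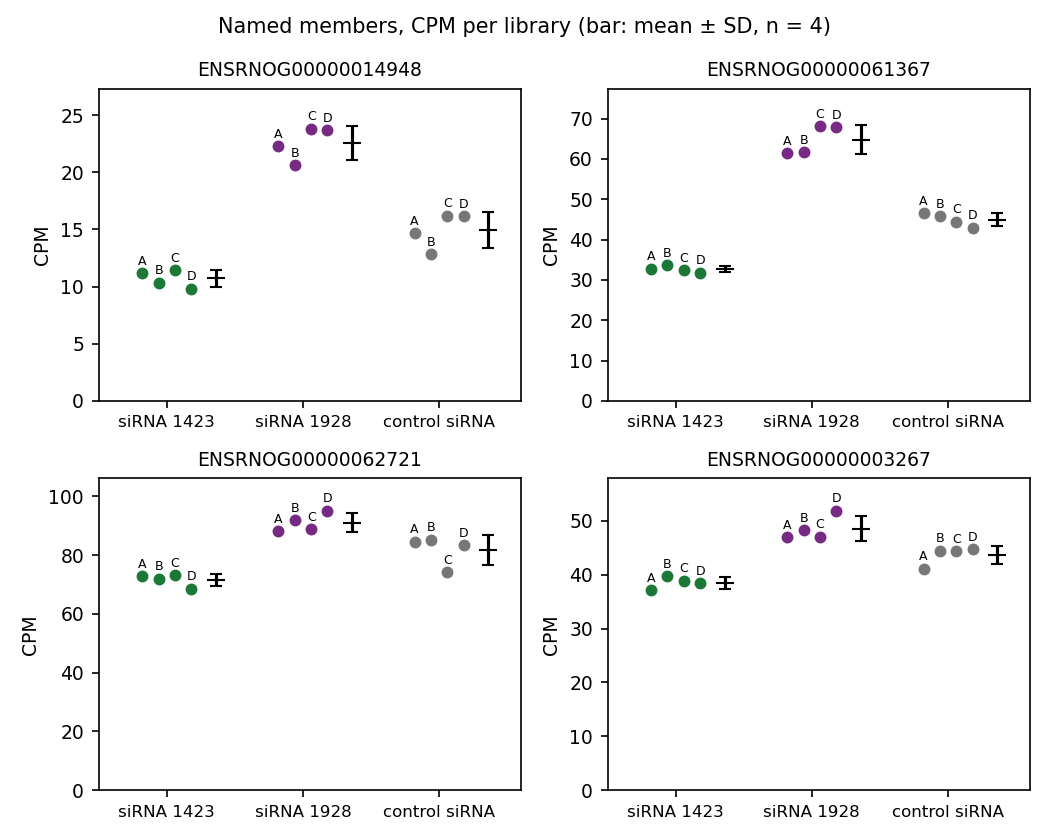
CPM in each library (points, lettered by replicate) with the mean and SD of 4 libraries (bars) for the 4 genes given by identifier, with siRNA 1423 and siRNA 1928 to the left of control. The upper pair shows wide gaps between groups, the lower pair gaps as small as that between control library C at 74.2 CPM and the highest library of siRNA 1423 at 73.1 CPM.

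The extremes of the ratios belonged to other genes, which fall outside the rule for identifiers and were singled out after their values were seen. The lowest ratio with siRNA 1423 was found in an abundant gene with 198, 192, 170 and 173 CPM in libraries A to D of siRNA 1423, 380, 383, 364 and 368 CPM with siRNA 1928, and 347, 343, 323 and 317 CPM in control. Its log2 ratios of -0.86 with siRNA 1423 and 0.17 with siRNA 1928 made it the most lopsided of the 118. The highest ratio with siRNA 1928, 0.60, was found in a scarce gene with means of 9.40 CPM with siRNA 1423, 16.2 CPM with siRNA 1928 and 10.7 CPM in control. The most abundant of the 118 genes averaged 380 ± 12.2 CPM with siRNA 1423, 488 ± 6.12 CPM with siRNA 1928 and 432 ± 16.4 CPM in control (SD, n = 4 each).

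Summed over the 118 genes, the level was 6229 ± 64.5 CPM with siRNA 1423, 9242 ± 83.8 CPM with siRNA 1928 and 7654 ± 60.4 CPM in control (SD, n = 4 each). The libraries of a group lay close together, at 6184 to 6321 CPM with siRNA 1423, 9165 to 9342 CPM with siRNA 1928 and 7590 to 7709 CPM in control. The groups did not overlap. The median log2 ratio of the 118 genes to the control mean was -0.30 to -0.25 in the libraries of siRNA 1423 and 0.27 to 0.29 in those of siRNA 1928. In control libraries, 52 to 65 of the 118 genes lay above the control mean and 53 to 66 below it.

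**Figure D3:**
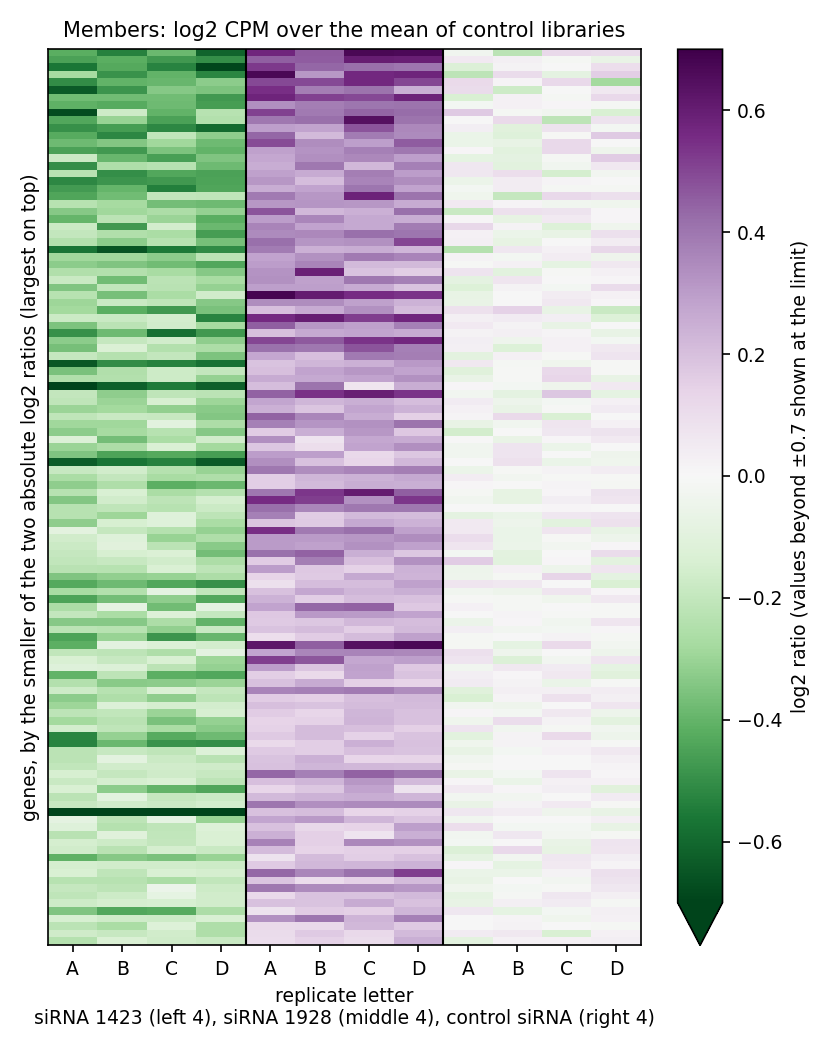
Log2 CPM of each of the 118 genes (rows) over the mean of the control libraries, in each library (columns; siRNA 1423 left, siRNA 1928 middle, control right). Green is below and purple above the control mean; every row is green in the 4 left columns and purple in the 4 middle ones, as the choice of genes requires, while its depth varies between rows more than between columns of a group.

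The group was spread over the range of abundance. The 118 genes had a median of 39.8 CPM, with quartiles of 20.9 and 75.9 CPM and a range of 10.9 to 433 CPM, against a median of 49.8 CPM over all genes of 10 CPM or more. They made up 1.75% of genes at 10 to 20 CPM (29 of 1655), 1.18% at 20 to 50 CPM (37 of 3140), 1.37% at 50 to 100 CPM (32 of 2342) and 0.823% at 100 CPM or more (20 of 2430). Expected counts behind single values ran from 132 to 11252 per library, with a median of 803. Values with decimals, which estimated counts can show where reads are shared among transcripts or genes, made up 48.4% of the values of the 118 genes and 56.5% of those of all genes of 10 CPM or more. Replicate spread was close to that of other genes. The choice of genes bore on this spread, since the libraries of each siRNA had to stay clear of every control library. The median coefficient of variation within a group was 4.53% with siRNA 1423, 3.77% with siRNA 1928 and 4.32% in control, against 4.25%, 4.17% and 4.44% over all genes of 10 CPM or more.

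Separation of the libraries in the required direction was rarer with siRNA 1423 than with siRNA 1928. Among genes of 10 CPM or more, every library of siRNA 1423 lay below every control library in 15.2% (1454 genes). Every library of siRNA 1928 lay above every control library in 29.6% (2829 genes). The limit on the ratio alone was met by somewhat fewer, 1283 genes with siRNA 1423 and 2745 with siRNA 1928. The limits on both ratios were met by 206 genes, of which 44 were left out because libraries of siRNA 1423 overlapped control, 22 because libraries of siRNA 1928 did and 22 because both did. Within the 118 genes the median gap between the nearest libraries was 0.0957 on the log2 scale between control and siRNA 1423, and 0.141 between siRNA 1928 and control. Both gaps reached 0.1 in 35 genes.

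A fit across all 12731 genes with enough counts, by edgeR's quasi-likelihood test with Benjamini-Hochberg adjustment, called 110 of the 118 genes lower with siRNA 1423 and 108 higher with siRNA 1928 at an adjusted p under 0.05. Of all genes tested, 11.5% were called lower with siRNA 1423 and 21.8% higher with siRNA 1928. The same libraries chose the genes, so these counts say nothing further about them. Both calls were made in 159 of the 12731 genes of the fit, 102 of them among the 118. Of the rest of the 118, 8 were called with siRNA 1423 alone, 6 with siRNA 1928 alone and 2 with neither. The 16 genes that missed a call were scarcer, with a median of 17.7 CPM, against 50.1 CPM in the 102. Their ratios were limited as well. The lesser absolute log2 ratio was at most 0.24 in the 16, while its median over the 118 was 0.22.

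The number of genes that met the rule depended on how the libraries were scaled. The trimmed mean of M values (TMM), which corrects for a shift in composition, gave factors averaging 0.984 with siRNA 1423, 1.03 with siRNA 1928 and 0.988 in control. Against the column sum it changed the log2 ratio with siRNA 1928 by a median of -0.057 and that with siRNA 1423 by 0.006. The median ratios of the 118 genes became -0.25 with siRNA 1423 and 0.23 with siRNA 1928, with every ratio keeping its sign. With TMM, 79 genes met the same rule, all of them among the 118. Of the 39 that did not, 24 had a library of siRNA 1928 that overlapped control, and the other 15 missed only the limit on a ratio. With overlapping genes included, the ratio with siRNA 1928 was under the limit in 29 of the 39, and that with siRNA 1423 in 1. The 39 had a median log2 ratio with siRNA 1928 of 0.19 by column sum and 0.13 by TMM, while the 79 had 0.34 and 0.28. ENSRNOG00000014948 and ENSRNOG00000061367 kept log2 ratios of 0.54 and 0.47 with siRNA 1928 under TMM, whereas ENSRNOG00000062721 and ENSRNOG00000003267 were each at 0.10 and no longer met the rule.

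The scaling bore as strongly on the mirror image of the group. By column sum, 41 genes met the same rule with the directions turned round, higher with siRNA 1423 (median log2 ratio 0.20) and lower with siRNA 1928 (median -0.27). With TMM they numbered 67, against 79 of the described direction, and with DESeq2 size factors 67, against 77. The described direction held more genes than its mirror image under all 3 scalings, and the size of that excess depended on the scaling. The excess was not tested. Genes that met the rule in the same direction with both siRNAs were more numerous under all 3 scalings, at 355 lower and 386 higher by column sum, 406 and 317 with TMM and 395 and 321 with DESeq2 size factors. Both ratios of a gene share the control libraries, whose deviations move them the same way. How far this raised the counts of genes changed in the same direction was not tested.

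**Figure D4:**
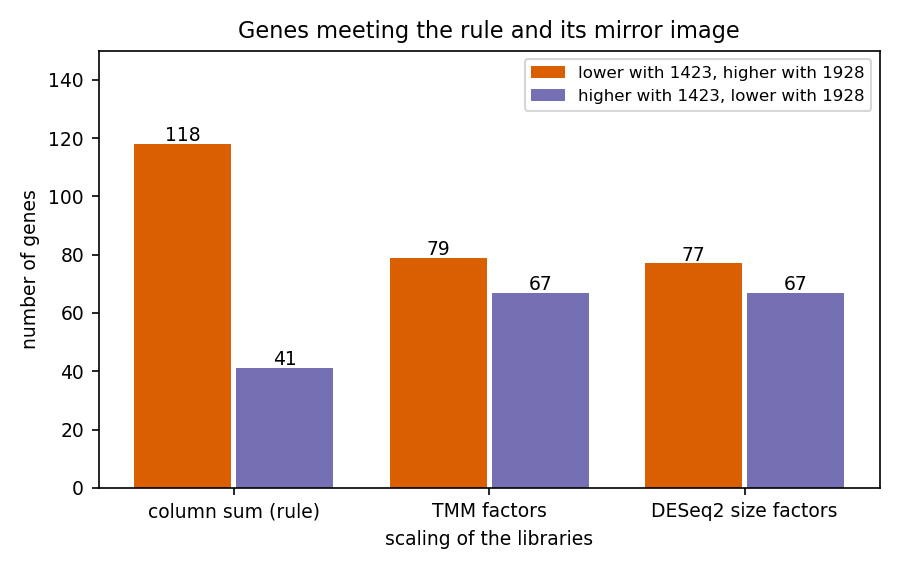
Number of genes that met the rule (orange) and its mirror image (violet) with libraries scaled by column sum, by TMM factors and by DESeq2 size factors. The orange bars stand at 118, 79 and 77 and the violet bars at 41, 67 and 67.

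One contrast was not used to choose the genes, that of replicates A and B with replicates C and D across all 3 groups. The division of the letters was itself known from earlier results of these data, so its p-values and shares are given as a description. Added to the fit as 1 term beside the groups, the contrast was called in 2 of the 118 genes (1.69%), against 8.76% of all genes tested and 10.6% of those of 10 CPM or more. One of the 2 was lower in A and B, by a log2 difference of -0.19 (SE 0.0279, adjusted p = 3.34e-05 by edgeR's quasi-likelihood test), and had means of 188 CPM with siRNA 1423, 311 CPM with siRNA 1928 and 232 CPM in control. The other was the gene with the lowest ratio with siRNA 1423 described above, with 183 CPM with siRNA 1423, 374 CPM with siRNA 1928 and 332 CPM in control, and was higher in A and B by 0.10 (SE 0.0217, adjusted p = 0.00194). The choice of genes was not fully independent of this contrast, since it required libraries that do not overlap between groups. Among the 88 genes that met both limits but whose libraries overlapped, the term was called in 15.9%. Other groups chosen with separated libraries had 4.88% (mirror image), 11.0% (lower with both siRNAs) and 4.40% (higher with both siRNAs), and the differences between these shares were not tested.

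The 4 genes given by identifier were not called in this contrast. Their log2 differences of A and B from C and D were -0.14 (SE 0.0584, adjusted p = 0.143) for ENSRNOG00000014948, -0.03 (SE 0.037, adjusted p = 0.736) for ENSRNOG00000061367, 0.03 (SE 0.0323, adjusted p = 0.664) for ENSRNOG00000062721 and -0.05 (SE 0.0363, adjusted p = 0.426) for ENSRNOG00000003267. Over the 118 genes the difference was below 0 in 77 and above 0 in 41, with a median of -0.025, against -0.011 over all genes of 10 CPM or more. Ratios within each pair of replicate letters are parts of the values that chose the genes and are given as a description. The median log2 ratios in A and B were -0.24 with siRNA 1423 and 0.28 with siRNA 1928, and in C and D they were -0.28 and 0.27. Both ratios reached the limit in 89 of the 118 genes in A and B and in 106 in C and D.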

How the data were processed

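Poly(A) RNA of 12 libraries was measured. The authors deposited expected counts, that is estimated numbers of reads, for each Ensembl gene; 71.3% of values were whole to within 1e-06. Bcl2fastq 2.20, fastp 0.21.0 and DESeq2 1.24.0 and build mRatBN7.2 appear in the submitters' processing notes; for the aligner, counting program and annotation the name is not given in the sources used here, nor is the handling of reads from near-identical genes. All 12 columns were matched to samples by title.

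CPM used column sums. For tests, counts were rounded, filtered with filterByExpr (minimum count 10, minimum total 15; 12731 genes), scaled by TMM and fitted with edgeR 4.0.16 (limma 3.58.1, R 4.3.3) over all 3 groups; genes were called at an adjusted p under 0.05. DESeq2 1.42.0, other scalings and filters, a replicate block and leave-one-out fits were alternatives. The edgeR script was tested on simulated data. Figures used matplotlib 3.10.9.

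The genes, the limits, the lists and the division of replicates into A and B against C and D were chosen with earlier results of these data known. The 36 gene lists and the cell type markers could not be matched to identifiers and were not used here. Identifiers were given for the 2 genes with the largest and the 2 with the smallest value of the lesser absolute log2 ratio.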

Additional observations from a re-analysis of the deposited data

Results flagged for a closer look

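The 118 genes differed in direction between the siRNAs in every library; the choice of genes required this, and the difference was not tested. Of 18 sets of 4 values searched for a library far from the others, 1 was found: ENSRNOG00000003267 in control library A, at 41.1 CPM, where chance picks out about 1 in 20 such sets. The same search over all 118 genes in 3 groups picked out 18 of 354 sets (5.08%).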

How the results depend on the processing

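The number of genes chosen, 118, was 79 with TMM, 125 with a mean of 5 CPM or more, 89 with 20 CPM or more and 118 to 135 without each library in turn. It moved further with DESeq2 size factors (77), with log2 limits of 0.10 (178) or 0.20 (70), with no separation of libraries required (206), and with fewer libraries to separate, in replicates A and B alone (180, of which 89 were among the 118) or C and D alone (241, of which 106). EdgeR calls in opposite directions gave 159 genes, 102 of them among the 118, and with the replicate block 187, 103 of them among the 118. The mirror image, 41 genes, was 67 with TMM and 67 with DESeq2 size factors, an alternative chosen after seeing the data.

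Genes called numbered 2903 with siRNA 1423, 5752 with siRNA 1928 and 1115 for replicates A and B against C and D; every alternative run stayed within 1.5 times these counts. With library size alone, 64.4% of the genes called with siRNA 1928 were higher, against 48.3% with TMM. With the replicate block the counts were 3365 with siRNA 1423 and 6174 with siRNA 1928. Deviations from the group mean correlated positively but weakly between same-letter siRNA and control libraries (0.0318 to 0.134, 4 of 8 under 0.1). With both siRNAs, the control library that correlated best was A for libraries A and B, and C for libraries C and D. The letters were not taken as pairs, and the main fit held no term for them. Of 88 recomputed log2 ratios of the 4 genes given by identifier, 80 moved by less than the spread between replicates, 8 moved further and 0 changed sign. Depth limits the scarcest of the 118 genes: at their lowest expected count, 132, sampling noise of a value in 1 library is 8.70%. The limit of 0.15 on the log2 scale is a difference of 11.0%. It applies to means of 4 libraries, which vary less than single values, so these percentages are not directly comparable.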
